A study of Mus musculus with 18 samples.

Results

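Cyclins are regulatory subunits that switch on cyclin-dependent kinases (CDKs), and the pairs they form drive a cell from a phase of its cycle to the next. D-type cyclins with Cdk4 act in G1 on the retinoblastoma family of proteins, E-type cyclins with Cdk2 start DNA replication, cyclin A serves S phase and the approach to mitosis, and B-type cyclins with Cdk1 drive mitosis itself. In cells with an intact retinoblastoma family, p53 slows this engine through the CDK inhibitor p21, encoded by Cdkn1a, and through repressor complexes on mitotic promoters. Small cell lung cancer (SCLC) is a tumour in which RB and p53 are usually both lost.

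Transcript levels of 10 genes of this engine were followed in RNA-sequencing data of mouse SCLC cell lines: the A and B cyclins Ccna2, Ccnb1 and Ccnb2, the E cyclins Ccne1 and Ccne2, the D cyclins Ccnd1 and Ccnd2, and the kinases Cdk1, Cdk2 and Cdk4. They were chosen by symbol from 25239 genes, with earlier results of these data known. All 10 passed the filter on low values that left 12828 genes to be tested. The 18 samples came from 3 Type D lines, 4711-1, 4711-18 and 4716-11, each grown from the tumour of an RP XTR R2 mouse (homozygous for Trp53 XTR and for floxed Rb1 and Rbl2, with FlpO-ER at Rosa26). Adenoviral Cre under the CMV promoter had deleted Rb1 and Rbl2 and trapped Trp53, so cells of every group, controls included, lack RB and p130. The lines carried a lentiviral guide against β-Gal (sgBgal, the control guide) or against exon 3 or exon 4 of Ppia, which encodes cyclophilin A (sgPpia#3.2 and sgPpia#4.1), in cells selected for the guide, in which the study describes cyclophilin A as reduced but not absent. Each was given vehicle (Control) or 4-OHT, which frees p53 from its trap (Restored), for 72 h. This made 6 groups of 3 samples in which the cell line was the replicate. Type D is the study's name for lines that die in the days after p53 restoration, so a Restored sample holds the cells that remained at 72 h.

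Trp53 was at 5.45 to 8.41 TPM in the 9 Control samples and at 181 to 236 TPM in the 9 Restored samples, so all 18 matched their labelled p53 state. Ppia was at 658 to 2849 TPM in Control cells, and lay lower with sgPpia#3.2 than with sgBgal in 3 of 3 lines in both states (-1.51 and -1.13 on the log2 scale, limma adjusted p = 0.472 and 1). With the cell line as a block these became 0.00153 and 0.0431. With sgPpia#4.1 the difference was smaller, -0.61 and -0.44, also lower in 3 of 3 lines, and not called with the block (limma adjusted p = 1 and 0.969). A guide need not lower the transcript it cuts. Rb1 (at most 30.8 TPM) and Rbl2 (at most 6.66 TPM) do not check their deletion, because a gene's total includes the exons that were kept. Of 8 neuroendocrine markers of SCLC, 4 reached 1 TPM in any sample (sum 15.8 to 30.4 TPM in Control and 15.6 to 37.3 TPM in Restored samples). Calca reached 0.0181 TPM and Chga 0.156 TPM at most, while Ncam1 was at 6.90 to 29.7 TPM and Syp at 3.03 to 7.12 TPM, so some defining markers of the labelled tumour type were near 0 in these lines. Ptprc, which marks leukocytes, reached 0.0814 TPM, Col1a1 of fibroblasts 0.918 TPM and Cdh5 of endothelium 0.116 TPM. The sum of 5 immune markers was 2.24 to 7.13 TPM in Control and 21.3 to 39.8 TPM in Restored samples, through Cd68, a lysosomal protein and the single immune marker to reach 1 TPM, and its part in the results was not tested. The fibroblast sum stayed within 0.405 to 1.12 TPM in Control and 0.521 to 1.11 TPM in Restored samples, the endothelial sum within 0.106 to 1.44 and 0.188 to 0.875 TPM, and that of alveolar and club epithelium within 1.07 to 9.04 and 1.26 to 6.67 TPM. The Control library of 4711-18 with sgPpia#3.2 stood apart: Cdkn1a was at 369 TPM there and at 99.4 to 171 TPM in the other 8 Control samples. The main member values that rest on it are given with and without it.

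Promoter sequence bears on these genes because mitotic genes are known to share a promoter layout. In it CCAAT boxes, bound by NF-Y at a regular spacing, stand upstream of a cell cycle genes homology region (CHR), the site of the DREAM and MuvB complexes. The RefSeq table (GRCm38.p6) matched 6 of the 10 genes, and no sequence is shown for Ccna2, Ccne2, Ccnd1 and Ccnd2. The 120 bases that end at the base before the annotated start are given 5′ to 3′ on the gene's strand, with capitals marking CHR letters (TTTGAA or TTTAAA) and CCAAT boxes on either strand (ATTGG where reversed). The windows are chr13:100786487-100786606 (minus strand) for Ccnb1, chr9:70421555-70421674 (minus strand) for Ccnb2, chr10:69352913-69353032 (minus strand) for Cdk1, chr7:38107491-38107610 (minus strand) for Ccne1, chr10:128705052-128705171 (minus strand) for Cdk2 and chr10:127063415-127063534 (plus strand) for Cdk4.
Ccnb1: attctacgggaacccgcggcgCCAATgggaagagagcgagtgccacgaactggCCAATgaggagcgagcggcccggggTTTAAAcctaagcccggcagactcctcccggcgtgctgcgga
Ccnb2: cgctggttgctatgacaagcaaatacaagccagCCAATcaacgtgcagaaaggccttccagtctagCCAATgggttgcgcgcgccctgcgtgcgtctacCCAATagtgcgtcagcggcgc
Cdk1: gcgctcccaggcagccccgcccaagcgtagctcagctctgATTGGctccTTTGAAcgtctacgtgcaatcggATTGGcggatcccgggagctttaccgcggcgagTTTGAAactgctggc
Ccne1: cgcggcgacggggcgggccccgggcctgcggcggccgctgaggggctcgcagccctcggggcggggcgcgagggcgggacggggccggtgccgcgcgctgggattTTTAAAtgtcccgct
Cdk2: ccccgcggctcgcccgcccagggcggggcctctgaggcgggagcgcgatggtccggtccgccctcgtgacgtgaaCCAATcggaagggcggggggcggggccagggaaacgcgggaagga
Cdk4: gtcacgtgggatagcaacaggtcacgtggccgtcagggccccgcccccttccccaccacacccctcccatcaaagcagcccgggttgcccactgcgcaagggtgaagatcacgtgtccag

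In Ccnb1, CCAAT boxes began 99 and 67 bases before the start, 32 bases apart, and CHR letters began 42 bases before it. Ccnb2 had CCAAT boxes 87, 54 and 21 bases before the start, each 33 bases from the next. Its CHR letters in the 250 upstream bases lay 167 bases before the start, outside the stretch shown, and another match began 5 bases after the start. Cdk1 had reversed CCAAT boxes 80 and 48 bases before the start, again 32 bases apart, a further box 208 bases before it, and CHR letters 71 and 15 bases before it. All 3 combined at least 2 CCAAT boxes with CHR letters in any order, which 2.36% of 32851 mouse promoters did over the same 250 bases. In Ccnb2 the CHR letters of that window lay upstream of its CCAAT boxes, the reverse of the layout described above. Ccne1 held CHR letters 15 bases before its start and no CCAAT box, Cdk2 a single CCAAT box 45 bases before it, and Cdk4 neither. An E2F site (TTTNNCGC, either strand) was matched 131 and 29 bases before the start of Cdk1 and 140 bases before that of Cdk2. Over all promoters 25.2% had CHR letters, 33.9% a CCAAT box and 4.28% an E2F match. These are matches of letters, and no binding was measured in these samples.

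In Control cells the kinase Cdk4 had the highest level of the 10, with a median of 713 TPM over 9 samples, followed by Ccnd1 at 369 TPM. TPM are scaled by transcript length, so levels can be compared between genes. Ccnb1 (177 TPM), Ccnb2 (171 TPM) and Ccnd2 (122 TPM) came next, then Cdk1 (84.7 TPM), Ccna2 (75.1 TPM), Cdk2 (42.1 TPM) and Ccne1 (34.3 TPM). Ccne2 was lowest at 3.23 TPM. In this order Cdk4 and Ccnd1, Ccnd1 and Ccnb1, Ccnd2 and Cdk1, and Ccne1 and Ccne2 had ranges that did not overlap. The ranges of the other neighbours did. In Restored cells the order was Ccnd1 (723 TPM), Cdk4 (573 TPM), Ccnd2 (174 TPM), Ccne1 (50.5 TPM), Cdk2 (47.3 TPM), Ccnb1 (31.6 TPM), Ccnb2 (29.0 TPM), Cdk1 (22.7 TPM), Ccna2 (11.3 TPM) and Ccne2 (7.53 TPM). There the ranges of Cdk4 and Ccnd2 were apart and those of all other neighbours overlapped. The A and B cyclins and Cdk1 thus ranked above Cdk2 and Ccne1 by median in Control cells and below them in Restored cells.

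**Figure D1:**
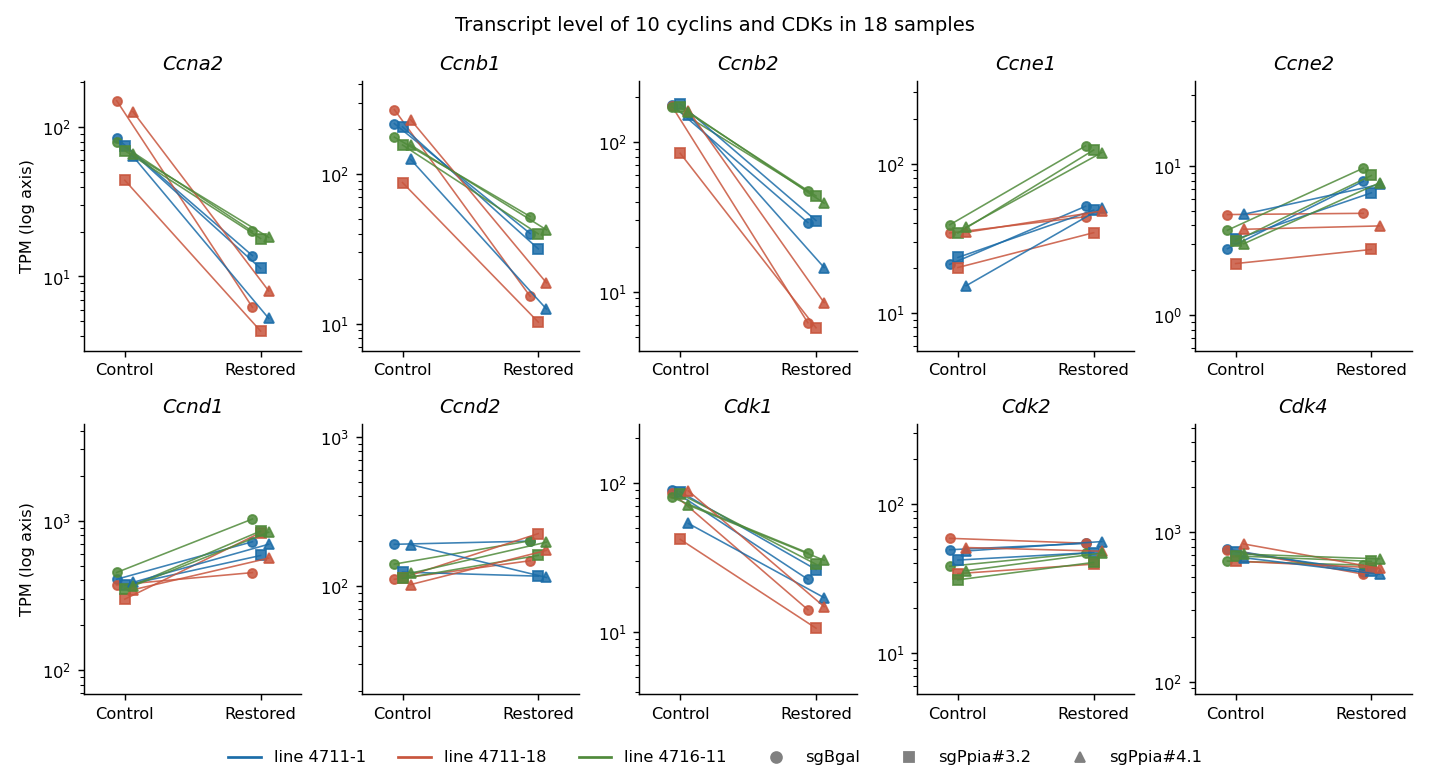
Level of each of the 10 genes (TPM, log axis; every panel spans the same number of decades) in Control and Restored cells, with a line joining the 2 states of a cell line (colour) with a guide (symbol). Ccna2, Ccnb1, Ccnb2 and Cdk1 fell in all 9 pairs, Ccne1, Ccne2 and Ccnd1 were higher in all 9, Cdk4 was lower in all 9, and Ccnd2 and Cdk2 moved in both directions.

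Ccna2, Ccnb1, Ccnb2 and Cdk1, the genes for the cyclins and the kinase of G2 and mitosis, fell after p53 restoration with each guide. Their Restored levels lay below every Control level, 9 samples against 9, a separation that 3.06% of the 12828 tested genes showed in this direction (8.12% lay wholly above). Called lower, at an adjusted p under 0.05 and a log2 change of at least 1, were 4 of the 10 genes with every guide, against 2.17% of tested genes with sgBgal, 1.31% with sgPpia#3.2 and 1.79% with sgPpia#4.1. Over all tested genes 701 were called higher and 279 lower with sgBgal, 570 and 168 with sgPpia#3.2, and 552 and 229 with sgPpia#4.1, and under median-of-ratios scaling 484 and 382, 416 and 239, and 414 and 292. The 4 genes were called lower with every guide under that scaling too. In bulk RNA, fewer cells in G2 and mitosis and less of these transcripts in each cell cannot be told apart.

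Ccnb1 encodes the main mitotic partner of Cdk1. With sgBgal, Ccnb1 was at 218, 271 and 177 TPM in the Control cells of lines 4711-1, 4711-18 and 4716-11, and at 40.1, 15.2 and 52.1 TPM in their Restored cells. With sgPpia#3.2, Ccnb1 was at 208, 87.9 and 157 TPM in Control and 31.6, 10.2 and 39.9 TPM in Restored cells of the same lines. With sgPpia#4.1, Ccnb1 was at 126, 232 and 157 TPM in Control and 12.5, 18.7 and 42.4 TPM in Restored cells of the same lines. Each line was lower when Restored, and the fall was steepest in 4711-18, from 8.60-fold to 17.8-fold over the 3 guides, and mildest in 4716-11, from 3.40-fold to 3.94-fold. For Ccnb1 the mean change on the log2(TPM + 1) scale was -2.74, -2.54 and -2.88 with sgBgal, sgPpia#3.2 and sgPpia#4.1 (SE 0.55 in each, n = 3 lines, limma adjusted p = 0.00472, 0.00918 and 0.00391).

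Ccnb2, the other B cyclin of dividing somatic cells, had the largest mean fall of the 10 with every guide. With sgBgal, Ccnb2 was at 178, 174 and 173 TPM in the Control cells of lines 4711-1, 4711-18 and 4716-11, and at 29.0, 6.18 and 47.0 TPM in their Restored cells. With sgPpia#3.2, Ccnb2 was at 181, 84.4 and 171 TPM in Control and 29.9, 5.72 and 43.7 TPM in Restored cells of the same lines. With sgPpia#4.1, Ccnb2 was at 153, 163 and 159.8 TPM in Control and 14.5, 8.43 and 39.1 TPM in Restored cells of the same lines. The Control samples were close to each other apart from the library of 4711-18 with sgPpia#3.2, whereas the Restored samples separated by line, with those of 4711-18 lowest and those of 4716-11 highest with each guide. For Ccnb2 the mean change on the log2(TPM + 1) scale was -3.01, -2.72 and -3.15 with sgBgal, sgPpia#3.2 and sgPpia#4.1 (SE 0.72 in each, n = 3 lines, limma adjusted p = 0.0135, 0.0273 and 0.0122).

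Ccna2 encodes cyclin A, which pairs with Cdk2 in S phase and with Cdk1 in G2. With sgBgal, Ccna2 was at 84.5, 150.4 and 80.1 TPM in the Control cells of lines 4711-1, 4711-18 and 4716-11, and at 13.8, 6.22 and 20.1 TPM in their Restored cells. With sgPpia#3.2, Ccna2 was at 75.1, 44.1 and 69.6 TPM in Control and 11.3, 4.31 and 18.0 TPM in Restored cells of the same lines. With sgPpia#4.1, Ccna2 was at 63.8, 127 and 65.6 TPM in Control and 5.24, 8.0 and 18.3 TPM in Restored cells of the same lines. In the Control state 4711-18 was the line with the highest level with sgBgal and sgPpia#4.1 and the lowest with sgPpia#3.2. For Ccna2 the mean change on the log2(TPM + 1) scale was -2.96, -2.54 and -3.0 with sgBgal, sgPpia#3.2 and sgPpia#4.1 (SE 0.53 in each, n = 3 lines, limma adjusted p = 0.00197, 0.00701 and 0.00205).

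Cdk1, the kinase on which entry into mitosis depends, fell less than its cyclins did by mean log2 change with each guide. With sgBgal, Cdk1 was at 89.9, 86.2 and 80.1 TPM in the Control cells of lines 4711-1, 4711-18 and 4716-11, and at 22.7, 14.2 and 34.1 TPM in their Restored cells. With sgPpia#3.2, Cdk1 was at 87.3, 41.9 and 84.7 TPM in Control and 26.3, 10.7 and 28.6 TPM in Restored cells of the same lines. With sgPpia#4.1, Cdk1 was at 53.6, 88.6 and 71.1 TPM in Control and 17.1, 14.9 and 30.4 TPM in Restored cells of the same lines. No Restored sample reached the lowest Control sample. For Cdk1 the mean change on the log2(TPM + 1) scale was -1.89, -1.70 and -1.76 with sgBgal, sgPpia#3.2 and sgPpia#4.1 (SE 0.40 in each, n = 3 lines, limma adjusted p = 0.00694, 0.0148 and 0.0119). Within samples, the ratio of Ccnb1 to Cdk1 transcripts, which no scaling of a library can change, was 1.86 to 3.14 (median 2.34) in Control and 0.733 to 1.77 (median 1.26) in Restored cells, with no overlap. The ratio of Ccnb1 to Ccnb2 was 0.822 to 1.56 (median 1.04) and 0.864 to 2.46 (median 1.11), with overlap.

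These 4 calls depended on how the fit treated the lines. With the cell line as a block, which compares each line with itself, all 4 genes were called lower with every guide, with adjusted p between 4.28e-04 and 0.00185, and they remained called when any line was left out of that fit. Without the block, leaving out 4711-1, the line of intermediate response with sgBgal, ended all 4 calls with every guide (for sgBgal, Ccna2 -3.17, adjusted p = 0.0509). Leaving out 4716-11 left 3 of the 4 called with sgBgal (Ccnb2 was lost, adjusted p = 0.0512), 1 with sgPpia#3.2 and 2 with sgPpia#4.1. With no filter on low values Ccnb2 was not called with sgPpia#3.2 (adjusted p = 0.0572). In a fit of the compared groups alone, Ccnb1, Ccnb2 and Cdk1 were not called with sgPpia#3.2 (adjusted p = 0.0655, 0.104 and 0.106). All 4 were still called with sgPpia#3.2 without its 4711-18 Control library, at -2.77 for Ccna2, -2.88 for Ccnb1, -3.07 for Ccnb2 and -2.04 for Cdk1.

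**Figure D2:**
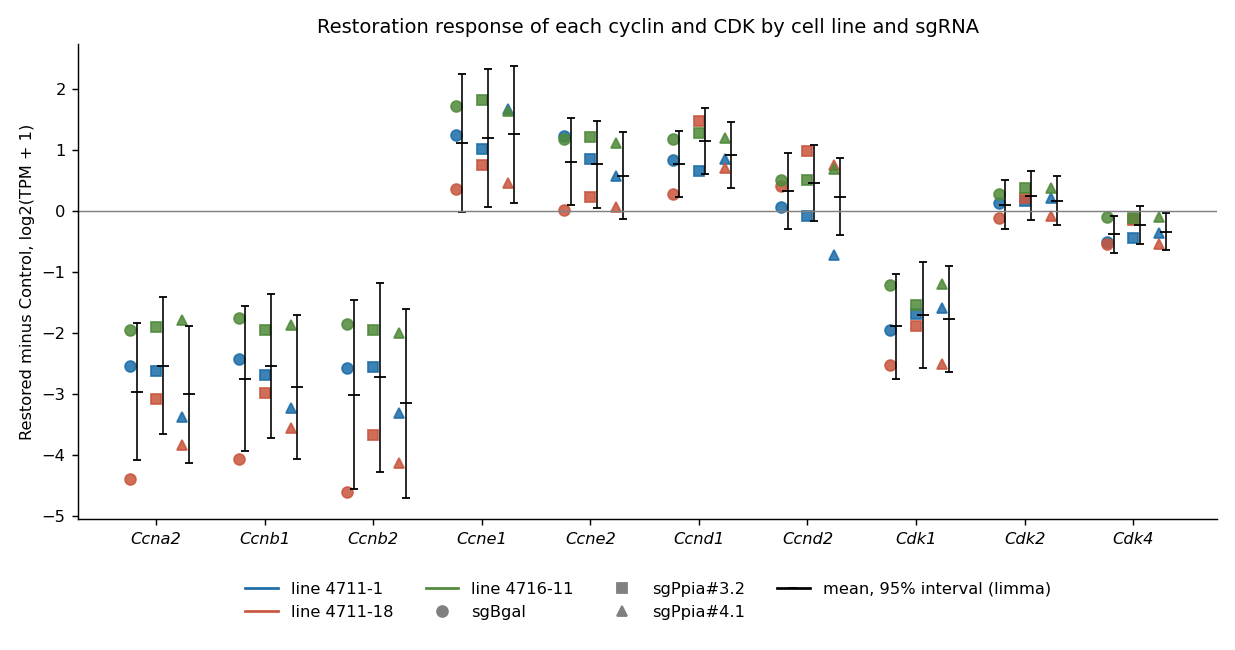
Restored minus Control on the log2(TPM + 1) scale for each gene, by cell line (colour) and guide (symbol), with the mean over 3 lines and its 95% interval from limma (black). The 4 genes of G2 and mitosis lie below 0 in every line, with 4711-18 lowest and 4716-11 highest for the A and B cyclins.

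The E cyclins lay higher in Restored cells, and neither was called without the block when all lines were kept. Ccne1, whose product binds Cdk2 at the start of S phase, was higher in 9 of 9 Restored samples than in the Control sample of the same line and guide. With sgBgal, Ccne1 was at 21.1, 34.3 and 38.9 TPM in the Control cells of lines 4711-1, 4711-18 and 4716-11, and at 51.8, 44.1 and 131 TPM in their Restored cells. With sgPpia#3.2, Ccne1 was at 23.5, 20.1 and 34.3 TPM in Control and 48.8, 34.5 and 123 TPM in Restored cells of the same lines. With sgPpia#4.1, Ccne1 was at 15.2, 34.6 and 37.4 TPM in Control and 50.5, 48.1 and 119 TPM in Restored cells of the same lines. Restored levels were above Control levels within each guide, but over all guides the lowest Restored sample, 4711-18 with sgPpia#3.2, was below the highest Control sample of 4716-11. For Ccne1 the mean change on the log2(TPM + 1) scale was 1.11, 1.20 and 1.26 with sgBgal, sgPpia#3.2 and sgPpia#4.1 (SE 0.53 in each, n = 3 lines, limma adjusted p = 0.181, 0.181 and 0.154). Ccne1 was therefore not called without the block. With it the adjusted p was 0.00991, 0.00837 and 0.00609 in the same order and Ccne1 was called higher with all 3 guides, as 7.7%, 6.4% and 6.26% of tested genes were. In the fit with the block, leaving out 4711-1 or 4716-11 ended these calls. Under median-of-ratios scaling, without the block, Ccne1 changed by 0.90, 1.00 and 1.08 in the order of guides (limma adjusted p = 0.361, 0.342 and 0.291).

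Ccne2, the less abundant E cyclin, was at 2.22 to 4.75 TPM in Control and 2.76 to 9.68 TPM in Restored cells. It was higher in 9 of 9 pairs, but in 4711-18 by 0.023 to 0.22 on the log2 scale only, against 1.12 to 1.22 in 4716-11. The mean change was 0.81, 0.76 and 0.58 with sgBgal, sgPpia#3.2 and sgPpia#4.1 (SE 0.34, limma adjusted p = 0.125, 0.18 and 0.315) and passed with none of them. Without 4711-18 it was called with sgBgal (1.20, adjusted p = 0.0181) and with sgPpia#3.2 (1.03, adjusted p = 0.030), and not with sgPpia#4.1. Under median-of-ratios scaling with all lines Ccne2 changed by 0.63, 0.61 and 0.44 in the order of guides (limma adjusted p = 0.303, 0.363 and 0.53). Cdk2, the kinase partner of both E cyclins and of cyclin A, was at 31.0 to 58.9 TPM in Control and 39.6 to 56.0 TPM in Restored cells. Its change was 0.11 with sgBgal (95% interval -0.29 to 0.51), 0.25 with sgPpia#3.2 (-0.15 to 0.65) and 0.17 with sgPpia#4.1 (-0.23 to 0.57), intervals that leave out a change of 1 in either direction, and under median-of-ratios scaling it was -0.11, 0.053 and -0.0019.

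The D cyclins take up growth signals, and in these cells their usual target RB is absent. Ccnd1 was higher in 9 of 9 pairs. With sgBgal, Ccnd1 was at 406, 372 and 450.3 TPM in the Control cells of lines 4711-1, 4711-18 and 4716-11, and at 723, 449 and 1027 TPM in their Restored cells. With sgPpia#3.2, Ccnd1 was at 369, 298 and 351 TPM in Control and 585, 833 and 853 TPM in Restored cells of the same lines. With sgPpia#4.1, Ccnd1 was at 386, 345 and 366 TPM in Control and 696, 562 and 838 TPM in Restored cells of the same lines. The Restored sample of 4711-18 with sgBgal, the lowest of the 9, was just below the Control sample of 4716-11 with sgBgal, the highest of the 9. For Ccnd1 the mean change on the log2(TPM + 1) scale was 0.76, 1.14 and 0.91 with sgBgal, sgPpia#3.2 and sgPpia#4.1 (SE 0.25 in each, n = 3 lines, limma adjusted p = 0.0589, 0.0104 and 0.0326). Only with sgPpia#3.2 were both thresholds passed, which made Ccnd1 the single member called higher, against 5.46%, 4.44% and 4.3% of tested genes called higher with sgBgal, sgPpia#3.2 and sgPpia#4.1. Without the block that call ended under median-of-ratios scaling (0.94, adjusted p = 0.0727), in a fit of the compared groups alone and when any of the 3 lines was left out. The difference between guides was itself not called. With the block the adjusted p was 0.00848, 9.48e-04 and 0.00372 in the order of guides, and the change still reached 1 with sgPpia#3.2 alone. This blocked call remained when 4711-1 or 4716-11 was left out and ended without 4711-18. Without 4711-18 the change was 1.01, 0.97 and 1.02, which exchanges the guides that pass.

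Ccnd2 was at 103 to 191 TPM in Control and 114 to 225 TPM in Restored cells. It was higher in 7 of 9 pairs and lower in 4711-1 with sgPpia#3.2 and sgPpia#4.1, and its mean changes of 0.33, 0.47 and 0.24 were not called (limma adjusted p = 0.5, 0.364 and 0.684). Cdk4, the kinase partner of the D cyclins, was lower in 9 of 9 pairs, at 640.0 to 835 TPM in Control and 524 to 663 TPM in Restored cells, which overlapped. Its mean change was -0.38 with sgBgal (SE 0.14, limma adjusted p = 0.0949), -0.23 with sgPpia#3.2 (0.361) and -0.34 with sgPpia#4.1 (0.162), short of the fold threshold in each. These values are to be read against a median change over all tested genes of 0.19, 0.17 and 0.15 on the same scale, which median-of-ratios scaling takes to about 0. Under that scaling Cdk4 changed by -0.60 with sgBgal (limma adjusted p = 0.0392). Without 4711-18 Ccnd2 changed by -0.02 with sgPpia#4.1.

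Ratios within a sample do not depend on library scaling, and they showed the shift between the cyclins directly. The ratio of Ccne1 to Ccna2 was 0.228 to 0.570 (median 0.313) in Control and 3.76 to 9.64 (median 6.55) in Restored cells. The 2 ranges were apart in all 18 samples, and those of 4711-18, where Ccna2 fell most and Ccne1 rose least, lay among those of the other lines in Restored cells. Ccna2 over its kinase partner Cdk2 was 1.29 to 2.55 (median 1.84) in Control and 0.0935 to 0.442 (median 0.239) in Restored cells. Ccnd1 over Cdk4 was 0.413 to 0.702 (median 0.506) in Control and 0.857 to 1.70 (median 1.33) in Restored cells, and it was above 1 in 7 of 9 Restored and 0 of 9 Control samples. Ccnd1 over Ccnd2 was 2.03 to 3.36 (median 2.99) in Control and 3.03 to 6.08 (median 4.25) in Restored cells, with overlap. The ratios were picked after the levels were seen and are given as descriptions.

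**Figure D3:**
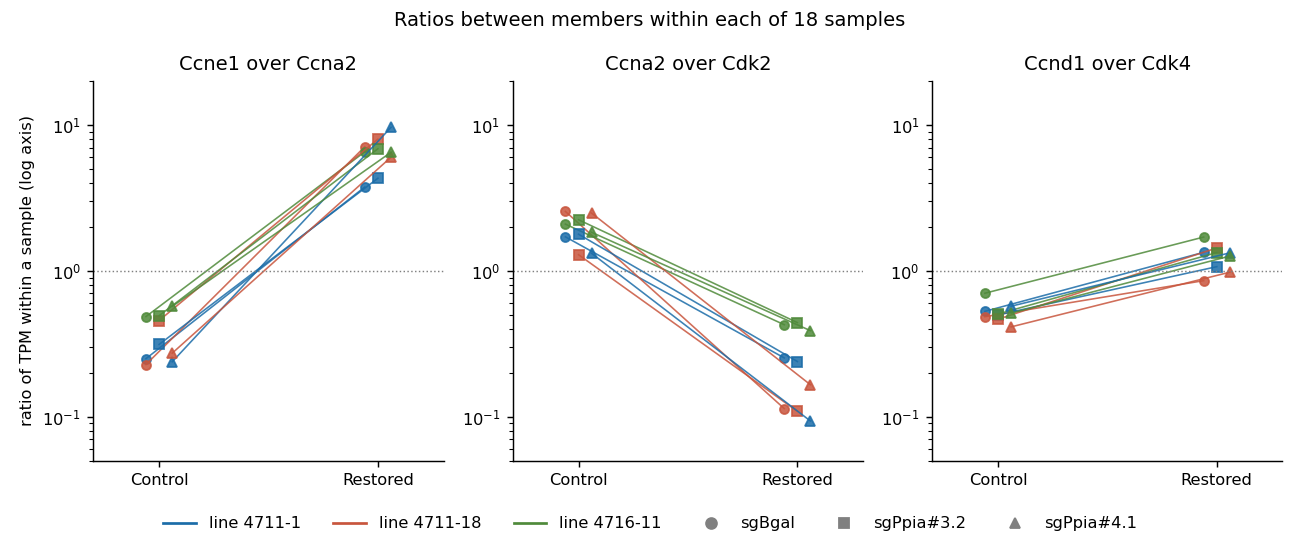
Ratio of TPM between pairs of genes within each of the 18 samples (log axis), with a line joining the Control and Restored sample of a cell line (colour) and guide (symbol) and a dotted line at equal levels. Ccne1 over Ccna2 crossed from below 1 to above 1 in all 9 pairs, and Ccna2 over Cdk2 crossed the other way in all 9.

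The guides against Ppia ask whether cyclophilin A bears on these transcripts, with and without p53. No member was called in any of the 4 comparisons of a Ppia guide with sgBgal, nor was any of the 12828 tested genes by limma (0% called in each). With the cell line as a block, Ppia was called in both comparisons of sgPpia#3.2, and so was Muc1 in Control cells (-1.08, adjusted p = 0.0381), which is named after its value was seen. In Control cells the members differed by -0.71 (Ccna2) to -0.067 (Cdk4) with sgPpia#3.2, all 10 below 0, and by -0.40 (Ccnb1) to 0.035 (Ccne2) with sgPpia#4.1. At an unadjusted p under 0.05 there was 1 member with sgPpia#3.2, where 2.42% of tested genes passed, and 0 with sgPpia#4.1, where 0.21% did. The 1 was Cdk2, at -0.43 (SE 0.19, limma adjusted p = 1), lower in 3 of 3 lines, and it did not pass that level without the 4711-18 Control library. With the cell line as a block it passed that level with and without the library, and its adjusted p by limma over all samples was 0.269.

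The differences of Ccna2, Ccnb1, Ccnb2 and Cdk1 lay mostly in that library. Ccna2 differed from the sgBgal sample of the same line by -1.75 in 4711-18, and by -0.17 and -0.20 in 4711-1 and 4716-11. The same held for Ccnb1 (-1.61 against -0.071 and -0.17), Ccnb2 (-1.03 against 0.024 and -0.011) and Cdk1 (-1.02 against -0.042 and 0.08). Cdkn1a was higher in this library than in the sgBgal library of the same line, and its part in these differences was not tested. Without line 4711-18 the mean difference was -0.18 for Ccna2, -0.12 for Ccnb1, 0.0066 for Ccnb2 and 0.019 for Cdk1.

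In Restored cells the members differed from sgBgal by -0.41 (Ccnb1) to 0.11 (Ccnd1) with sgPpia#3.2 and by -0.54 (Ccnb1) to 0.074 (Cdk4) with sgPpia#4.1. None had an unadjusted p under 0.05, and 1.2% and 0.53% of tested genes had. With the block Cdk2 did with sgPpia#3.2, at -0.29 and lower in 3 of 3 lines (limma adjusted p = 0.57). The share of all tested genes that did so with the block is not given here, so this is not read as a result about the members. The Ccnb1 difference with sgPpia#4.1 came from 4711-1, at -1.60, with 0.28 in 4711-18 and -0.29 in 4716-11. Lines also split on Ccnd1 with sgPpia#3.2, at 0.89 in 4711-18 and -0.31 and -0.27 in 4711-1 and 4716-11.

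Tested directly, the restoration response with a Ppia guide was not called different from that with sgBgal for any member or any tested gene (0% called for both guides, and 0.242% and 0.14% at an unadjusted p under 0.05, with 0 members). The difference of responses ranged from -0.047 (Ccne2) to 0.42 (Ccna2) with sgPpia#3.2 and from -0.23 (Ccne2) to 0.15 (Ccnd1) with sgPpia#4.1. The 0.42 of Ccna2 lay in 4711-18, at 1.31, with -0.096 in 4711-1 and 0.049 in 4716-11. It was 0.19 without the 4711-18 Control library of sgPpia#3.2 and -0.023 without line 4711-18, where the members ranged from -0.23 (Ccnb1) to 0.059 (Cdk2). The 95% intervals reach 0.44 to either side for Cdk4, the narrowest, and 2.19 for Ccnb2, the widest. Those of Ccna2, Ccnb1, Ccnb2, Ccne1, Ccne2 and Cdk1 reach more than 1 to either side. For these genes a difference of 1 between guides was not detectable with 3 lines.

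**Figure D4:**
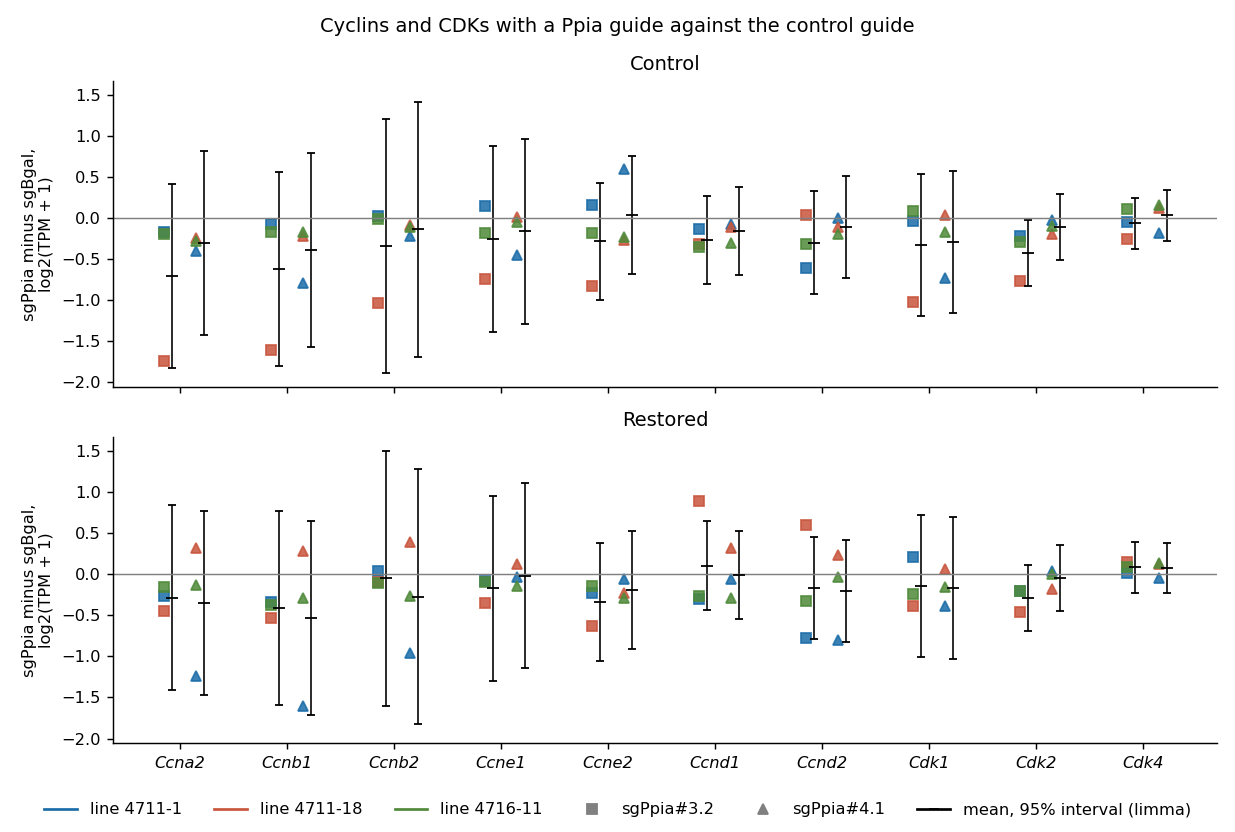
Difference between a Ppia guide and sgBgal on the log2(TPM + 1) scale for each gene in Control (top) and Restored cells (bottom), by cell line (colour) and guide (symbol), with the mean over 3 lines and its 95% interval from limma (black). In Control cells the 4711-18 points of sgPpia#3.2 lie apart for Ccna2, Ccnb1, Ccnb2 and Cdk1, and in Restored cells the 4711-1 points of sgPpia#4.1 do for Ccna2, Ccnb1 and Ccnb2.

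The genes that work with the cyclins and CDKs were grouped into 9 lists that hold no member, and read against the share of all tested genes called (with sgBgal, sgPpia#3.2 and sgPpia#4.1, 2.17%, 1.31% and 1.79% lower and 5.46%, 4.44% and 4.3% higher). The lists were drawn up with earlier results of these data known, so their counts are descriptions. Of 16 mitotic genes all 16 fell with sgBgal and sgPpia#4.1 and 15 with sgPpia#3.2, with a list median of -2.53 with sgBgal where all tested genes had 0.19. Among them Plk1, a kinase of mitotic entry and exit, changed by -3.14 (SE 0.69, limma adjusted p = 0.00806), the spindle motor Kif11 by -2.88 (SE 0.66, limma adjusted p = 0.0105), the checkpoint kinase Bub1b by -2.81 (SE 0.45, limma adjusted p = 0.00102) and Aurkb, of the chromosomal passenger complex, by -2.74 (SE 0.57, limma adjusted p = 0.00598). The count without the block was 2, 0 and 2 with sgBgal, sgPpia#3.2 and sgPpia#4.1 when 4711-1 was left out and 8, 3 and 6 when 4716-11 was, while a fit of the compared groups alone called 15, 2 and 15 and the fit with the block 16 in each.

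Of 7 genes that set the phosphorylation or docking of CDKs, 4 fell with each guide. Cdc25c and Cdc25b, phosphatases that activate Cdk1, changed by -2.63 (SE 0.49, limma adjusted p = 0.00266) and -1.90 (SE 0.33, limma adjusted p = 0.00166), and the docking subunits Cks2 and Cks1b by -1.58 (SE 0.21, limma adjusted p = 2.71e-04) and -1.32 (SE 0.22, limma adjusted p = 0.00132). Their counterpart of G1 and S, Cdc25a (0.14), and the inhibitory kinases Wee1 (-0.22) and Pkmyt1 (-0.43) were not called. Leaving out 4711-1 left 3, 2 and 2 of the 4 with sgBgal, sgPpia#3.2 and sgPpia#4.1, and leaving out 4716-11 left 3, 1 and 2. In the compared groups alone 2 were called with sgPpia#3.2. Of 15 tested ubiquitin ligase genes and regulators that govern cyclin turnover, 3 fell with sgBgal and sgPpia#4.1 and 2 with sgPpia#3.2. With sgBgal Cdc20 and Ube2c, of the anaphase-promoting complex pathway, changed by -2.38 and -2.12 (limma adjusted p = 0.0172 and 0.00569). Fbxo5, an inhibitor of that complex, changed by -1.25 (adjusted p = 0.0304) and was not called with sgPpia#3.2. None was called without 4711-1, and without 4716-11 the count was 2, 0 and 0. With sgPpia#3.2 it was 1 with no filter on low values and 0 in the compared groups alone.

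None of 12 S-phase genes, among them Mcm2 to Mcm7, Pcna and Cdc6, was called by limma in either direction with any guide or had an unadjusted p under 0.05, where 28.5%, 23.8% and 24.4% of tested genes had with sgBgal, sgPpia#3.2 and sgPpia#4.1. Their changes with sgBgal ran from -0.51 (Tyms) to 0.49 (Cdt1), with a median of 0.053. Of 20 genes for the RB family, E2F, the DREAM complex and mitotic transcription factors, 2 fell and 1 rose with each guide, and for the single rise the share is near that of all tested genes called higher. Foxm1 and Mybl2, which activate mitotic promoters, changed by -1.99 (SE 0.45, limma adjusted p = 0.0103) and -1.87 (SE 0.52, limma adjusted p = 0.0268). Rb1 rose by 1.78 (SE 0.38, limma adjusted p = 0.00685) and was at 3.36 to 9.44 TPM in the Control samples and 14.6 to 30.8 TPM in the Restored samples, a total that counts the exons kept in these deleted cells. Without 4716-11 none of the 3 was called with any guide. Without 4711-1 none was called with sgBgal or sgPpia#3.2 and 1 fall with sgPpia#4.1, and without 4711-18 1 of the 2 falls was called with each guide. With no filter on low values 1, 0 and 1 falls were called in the order of guides, and in the compared groups alone none of the 3 was called with sgPpia#3.2 and 1 fall with sgPpia#4.1. With a pseudocount of 0.1, 1 fall was called with sgPpia#4.1. Without the 4711-18 Control library of sgPpia#3.2, 1 fall was called with each of sgPpia#3.2 and sgPpia#4.1. The block gave 1 fall with each of these guides without 4716-11, and 1 with sgPpia#3.2 without 4711-1.

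Of 6 tested CDK inhibitor genes, Cdkn1a rose with every guide, by 4.35 (SE 0.43, limma adjusted p = 1.82e-05) with sgBgal, and was at 99.4 to 369 TPM in the Control samples and 1565 to 3806 TPM in the Restored samples. Cdkn2d, an inhibitor of Cdk4 and Cdk6, changed by -1.14 (SE 0.30, limma adjusted p = 0.0217) with sgBgal and -1.12 (SE 0.30, limma adjusted p = 0.0281) with sgPpia#3.2, and was not called with sgPpia#4.1 or, with sgBgal, when any line was left out. With sgPpia#3.2 it was not called without 4711-1, without 4716-11 or without the 4711-18 Control library. In the compared groups alone it was called with no guide. With sgBgal Cdkn1b (-0.34), Cdkn2a (-0.50), Cdkn2b (0.40) and Cdkn2c (-0.71) were not called. Of 14 other tested cyclins and CDKs of the cell cycle, 1 rose with every guide, a share near that of all tested genes called higher. It was Ccng1, a p53 target that activates no cell-cycle CDK, by 3.71 (SE 0.18, limma adjusted p = 1.79e-08) with sgBgal. The other 13, Ccnd3 (0.37) and Cdk6 (-0.079) among them, were not called. With the block Cdk18, named after its value was seen, was called higher with sgPpia#4.1, at 1.0006 (adjusted p = 0.00746). The count called higher in this list was also 2 with sgPpia#4.1, without the block, when the 4711-18 Control library of sgPpia#3.2 was left out. With sgBgal it was 2 under the block without 4711-1 or without 4716-11. None of 16 genes for the CDK-activating kinase and for cyclin-CDK pairs that serve transcription was called by limma, while 3, 1 and 0 had an unadjusted p under 0.05 with sgBgal, sgPpia#3.2 and sgPpia#4.1, shares below the 28.5%, 23.8% and 24.4% of all tested genes, with a list median of 0.28 with sgBgal. Of 15 genes that respond to mitogens or regulate D cyclins, Mycl alone was called lower, with each guide. It changed by -1.60 (SE 0.50, limma adjusted p = 0.0446) with sgBgal from a Control median of 4.81 TPM, and no guide kept that call without 4711-1, without 4716-11 or with no filter on low values. A fit of the compared groups alone kept it with sgPpia#3.2 only. With sgBgal and sgPpia#3.2 it was also lost without the 4711-18 Control library of sgPpia#3.2. Myc (-0.033) and Ctnnb1 (0.22), regulators of Ccnd1, were not called with sgBgal.

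**Figure D5:**
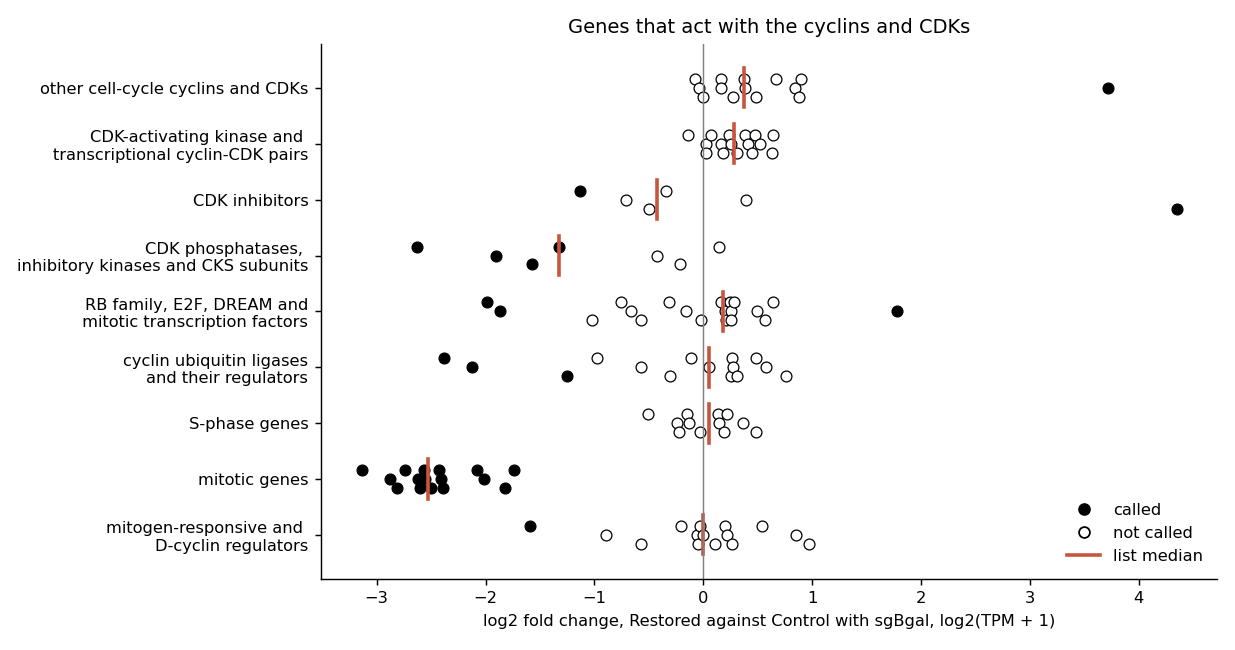
log2 fold change of Restored against Control cells with sgBgal for the tested genes of 9 lists (each point is a gene; filled, called; open, not called; bar, list median). All 16 mitotic genes lie below 0 and are called, while the 12 S-phase genes lie around 0 and none is called.

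The profiles over the same 18 samples were also compared, as a further description of these values and not as separate support. Likeness was measured as the root-mean-square difference of log2(TPM + 1) after each gene was centred on its own mean, so that a smaller value is a closer profile. The genes nearest to Ccna2 were Ccnb1 (0.182) and Sapcd2 (0.258), where the median over all tested genes was 1.68. Those nearest to Ccnb1 were Ccna2 (0.182) and Aurkb (0.197), to Ccnb2 Pimreg (0.140) and Cdca3 (0.179), and to Cdk1 Tpx2 (0.158) and Cenpn (0.164). Ccne1 was nearest to Tcf19 (0.232) and Ppp1r12b (0.341), with a median of 0.894, and Ccne2 to Rnf168 (0.230) and Casp8ap2 (0.242). For Ccnd1 the nearest was Gne (0.180). The nearest genes were, for Ccnd2, Sgms1 (0.196) and Axl (0.213), for Cdk2 Fbxo33 (0.112) and Kpnb1 (0.115) and for Cdk4 Pbdc1 (0.0940) and Tagln2 (0.111), genes with little change over the samples being near to many others (median 0.468 for Cdk4). Ccna2 and Ccnb1 were each other's nearest gene of the 12828. The samples of a profile share cell lines, and no test was made.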

How the data were processed

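RNA of 18 cell-line samples was isolated with RNeasy columns and made into NEBNext Ultra II libraries, per the labels. The authors deposited a table of TPM, transcript levels scaled by length and to the same total in each sample, for 25239 genes. The submitters' processing notes name bcl2fastq 2.17, HISAT2 and the builds mm10 and GRCm39. Which tool and build made this table, the counter, the annotation and the gene filter are not given in the sources used here, so promoter coordinates are RefSeq's own and none come from the table.

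The 12828 genes that reached 1 TPM in 3 or more samples were kept, and log2(TPM + 1) was fitted with limma 3.58.1 in R 4.3.3 with a mean for each of 6 groups. A fold change on this scale understates the change of low genes. A gene was called at a Benjamini-Hochberg adjusted p under 0.05, two-sided, over all genes tested and an absolute log2 change of at least 1. A difference between responses needed the adjusted p alone. An exact permutation test of 3 against 3 samples cannot go below p = 0.1, so none is used for a call. The alternatives were the cell line as a block, a pseudocount of 0.1, no filter or at least 5 TPM, median-of-ratios scaling, the compared groups alone, trended and robust variance moderation, no minimum fold change, and leaving out each line or the 4711-18 Control library of sgPpia#3.2. The block combined with leaving out was added after seeing the data.

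Cell lines pair the samples across groups. Deviations from the group means had a mean correlation of 0.729 among the 45 sample pairs of a line, where the lowest was 0.580, and of -0.361 among the 90 that crossed lines and conditions. The 3 lines are the replicates and recur in each of the 6 groups. Without the block, p-values rest on the spread between lines pooled over these groups, and samples of a line count as independent. With the block, they rest on the spread left within lines once each line's mean level is removed. The names of 4711-1 and 4711-18 share a number whose meaning is not given in the sources used here.

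TPM keep no read depth. The step of low values put the depth of the samples within a factor of 1.77 of each other, and the absolute depth is unknown. On simulated data with 12828 genes, 200 of them changed, made for Restored against Control with sgBgal, the test recovered 73% of changes of 1.5 and 94% of changes of 3 on the log2 scale (90% and 99% with the block).

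The members and gene lists were chosen with earlier results of these data known. The genes named were the 10 members, up to 4 called genes of each list with the largest change with sgBgal, the 2 genes of nearest profile to each member (1 of them, for Ccnd1, is not reported here), and Trp53, Cdkn1a, Ppia, Rb1 and Rbl2 as checks. Genes named as not called were chosen after their values were seen. Motifs were searched in the 250 bases before each RefSeq start.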

Additional observations from a re-analysis of the deposited data

How the results depend on the processing

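The falls of Ccna2, Ccnb1, Ccnb2 and Cdk1 kept their direction under every alternative run. Of 600 alternative values for members' log2 changes, 541 kept their direction and their side of the threshold, 17 newly passed it, 28 no longer did and 14 turned sign. Without a block, leaving out a library or line gave 0 to 4 members called lower with each guide, 0 to 2 called higher with sgBgal and 0 to 1 with sgPpia#3.2 and sgPpia#4.1, and 466 to 1009, 229 to 794 and 280 to 801 genes in all with sgBgal, sgPpia#3.2 and sgPpia#4.1 (980, 738 and 781 with every sample). The lowest totals of genes came without 4716-11, and the 0 members called lower without 4711-1.

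With the cell line as a block, as the pairing of samples allows, members called higher numbered 1, 2 and 1 in the order of guides (Ccne1, and Ccnd1 with sgPpia#3.2). They numbered 3, 2 and 2 with the block and without 4711-18, and 1, 2 and 1 with the block and without the 4711-18 Control library of sgPpia#3.2. The share of all tested genes called higher is given for the block with all samples only (7.7%, 6.4% and 6.26%). These counts are therefore not read as a result about the members. All genes called numbered 1177 with sgPpia#4.1 under the block, 1121 and 1522 with sgPpia#3.2 and sgPpia#4.1 under the block without 4711-1, 1158 with sgPpia#3.2 without 4711-18, and 1207 and 1184 without that Control library. In the comparisons of sgPpia#3.2 with sgBgal the block called 2 genes in Control cells and 1 in Restored cells, and 1 in each without that library. The block changed no other member's call.

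The compared groups alone gave 367 and 416 genes with sgPpia#3.2 and sgPpia#4.1, and with sgPpia#3.2 1 member lower and 0 higher. Median-of-ratios scaling left 0 members called higher with sgPpia#3.2. With no minimum fold, 1773, 1284 and 1322 genes passed, and 1 member was called higher with sgPpia#4.1. Cdk2 turned to -0.11 with sgBgal and -0.0019 with sgPpia#4.1 under median-of-ratios scaling, and Ccnd2 with sgPpia#4.1 to -0.020 without 4711-18, with or without the block (range -0.020 to 0.72 over the samples left out). Between sgPpia#3.2 and sgBgal in Control cells, with the block and without 4711-18, Ccnb2 turned to 0.0066, Cdk1 to 0.019 and Cdk4 to 0.029. Leaving out a line or that library without a block gave ranges of -0.52 to 0.0098 for Ccnb2, -0.53 to 0.019 for Cdk1 and -0.16 to 0.029 for Cdk4. Cdk4 was 0.024 under median-of-ratios scaling and 0.0011 with the block and without that library. The cause of these changes was not tested. Of counts over gene lists, 778 stayed within 1.5 times and 86 moved.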
